A study of Homo sapiens with 6 samples.

Results

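The regions described here are the ChIRP-seq peaks that border the centromere gaps of the human chromosomes. ChIRP-seq maps the chromatin contacts of an RNA with biotinylated oligonucleotides complementary to it, which pull down crosslinked chromatin for sequencing. The RNA was DINO, a long noncoding RNA induced by DNA damage and needed for the activation of several p53 target genes. The cells were U2OS, an established osteosarcoma line with wild-type p53, and every library came from cells given 0.2 µg/mL doxorubicin, a DNA-damaging drug, for 24 h before glutaraldehyde crosslinking. Of the 6 samples, 4 had a peak list: the even and the odd probe set, 2 independent sets of oligonucleotides against DINO, each used once without RNase and once after RNase, which removes RNA and so shows what the oligonucleotides recover without it. The 2 input samples were not analysed here. There was 1 library per condition, so differences below are between single libraries, no spread between replicates exists and no p-value is given. How many reads each list rests on is unknown, and the DNA copy number of this aneuploid line was not analysed here.

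The peaks were chosen by position. On chromosomes with peaks on both arms, among 1 to 22 and X, the longest stretch without a peak in any of the 4 lists was taken as the centromere gap, and on chromosomes 13, 14, 15, 21 and 22 the stretch from base 1 to the lowest peak was used. A peak was counted as lying beside the gap when its summit was within 2 Mb of either edge. This gave 5618 peaks of 314001 in all, at 41 edges: 1835 of 105669 in the untreated even list, 636 of 34695 in the untreated odd list, 2078 of 116171 in the RNase-treated even list and 1069 of 57466 in the RNase-treated odd list. All other peaks on these chromosomes are called the arms. Since the rule used peak positions, the density of peaks near the edges is a description of what was chosen. Width and overlap between lists were not used by the rule.

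Centromeres are built on long arrays of alpha satellite, a tandem repeat, and are bordered by other satellites, segmental duplications and silent heterochromatin. In the older reference assemblies these arrays were left as gaps of unknown sequence, and the short arms of chromosomes 13, 14, 15, 21 and 22 were left out as well. Short reads from repeats near such gaps can match many places, or pile up on the few copies that the assembly holds. The letters at these positions are not shown, because no sequence of the build used by the files was used here.

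The stretches found by the rule are given as hg19 positions, counted from 1. On the 18 chromosomes with both edges they were 3.04 to 21.1 Mb long with a median of 3.20 Mb, and 15 of them were under 4 Mb. The long ones lay on chromosome 1 at 121485429 to 142536926 (21.1 Mb), chromosome 9 at 47212393 to 66455995 (19.2 Mb) and chromosome 16 at 35223143 to 46408648 (11.2 Mb). Each of the 18 was at least 1.68 times as long as the next longest peak-free stretch on its chromosome. That smallest margin was on chromosome 5, whose gap ran from 46374892 to 49575197. On the 5 chromosomes counted from base 1, the stretch was 9.45 to 20.2 Mb long. On chromosome 21 the label holds less well, because its stretch ended at 9446545 and the longest break between neighbouring peaks, 3.68 Mb from 11186652 to 14863493, lay further along. The 41 edges were set by peaks of the RNase-treated odd list at 21 edges, the RNase-treated even list at 17, the untreated odd list at 4 and the untreated even list at 1, with 2 edges shared by both odd lists.

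The first comparison was of peak density. Peaks were sparser beside the gaps than on the arms in all 4 lists, and by a like factor. The untreated even list had 22.4 peaks per Mb beside the gaps (exact Poisson 95% interval 21.4 to 23.4) and 37.5 on the arms, a ratio of 0.596. The untreated odd list had 7.76 per Mb (7.16 to 8.38) and 12.3, a ratio of 0.630. After RNase the even list had 25.3 per Mb (24.3 to 26.5) and 41.2, a ratio of 0.615. The RNase-treated odd list had 13.04 per Mb (12.3 to 13.8) and 20.4, a ratio of 0.640. Such intervals describe counting error alone, as if peaks were independent of their neighbours. Together the 82 Mb beside the gaps were 2.88% of the length counted, and they held 1.74% to 1.86% of the peaks of a list.

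Long stretches without a peak in any list took up more of the length beside the gaps. Those of at least 100 kb made up 33.4% of the length beside the gaps and 5.59% of the arms. With them left out of the length on both sides, the ratios were 0.845 (even) and 0.893 (odd) without RNase, and 0.871 and 0.907 after it. Since the stretches were chosen for holding no peak, leaving them out raises both densities by construction. The ratio rose because a larger share of the length was left out beside the gaps. More than 50% of the 2 Mb was in such stretches at 10 of 41 edges, against 17 of 1361 stretches of 2 Mb along the arms. Whether these stretches are unsequenced bases or sequence without peaks was not tested.

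Density was lower beside the gap than on the arms of the same chromosome on 22 of 23 chromosomes for the even set in either state, and for the odd set on 20 without RNase and 21 after it. Chromosome 9 had the lowest ratio in all 4 lists, between 0.0134 (RNase-treated odd) and 0.110 (RNase-treated even). Chromosome 4 went the other way in 3 lists, with ratios of 1.21 (untreated even), 1.19 (untreated odd) and 1.09 (RNase-treated even), and 0.988 in the RNase-treated odd list. On some chromosomes the ratios of the probe sets lay on opposite sides of 1, a difference that was not tested. The X chromosome did so in both RNase states. Its even peaks were sparser beside the gap, with ratios of 0.498 without RNase and 0.674 with RNase, whereas its odd peaks were denser there, with ratios of 1.16 and 1.34. In numbers, the X chromosome had 34 even and 28 odd peaks beside the gap without RNase, and 60 and 62 with RNase. Chromosome 20 did so without RNase (even 0.796, odd 1.03) and chromosome 19 with RNase (even 0.618, odd 1.21). Chromosome 4 did so with RNase in the opposite direction (even 1.09, odd 0.988).

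The 41 edges differed widely from each other. Over 2 Mb, the untreated even list had between 3 and 103 peaks per edge with a median of 39, and the untreated odd list between 0 and 37 with a median of 15. After RNase the ranges were 5 to 111 (median 52) for the even set and 0 to 72 (median 28) for the odd set. Arm stretches of the same length had medians of 71 (even) and 24 (odd) without RNase, and 80 and 41 after it. Of the 41 edges, 30, 33, 33 and 36 were below these medians in the same order, and 18, 17, 18 and 20 were below the lowest 10% mark of the arm stretches. Most edges were thus poorer than a typical arm stretch, though arm stretches with 0 peaks existed in every list.

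**Figure D1:**
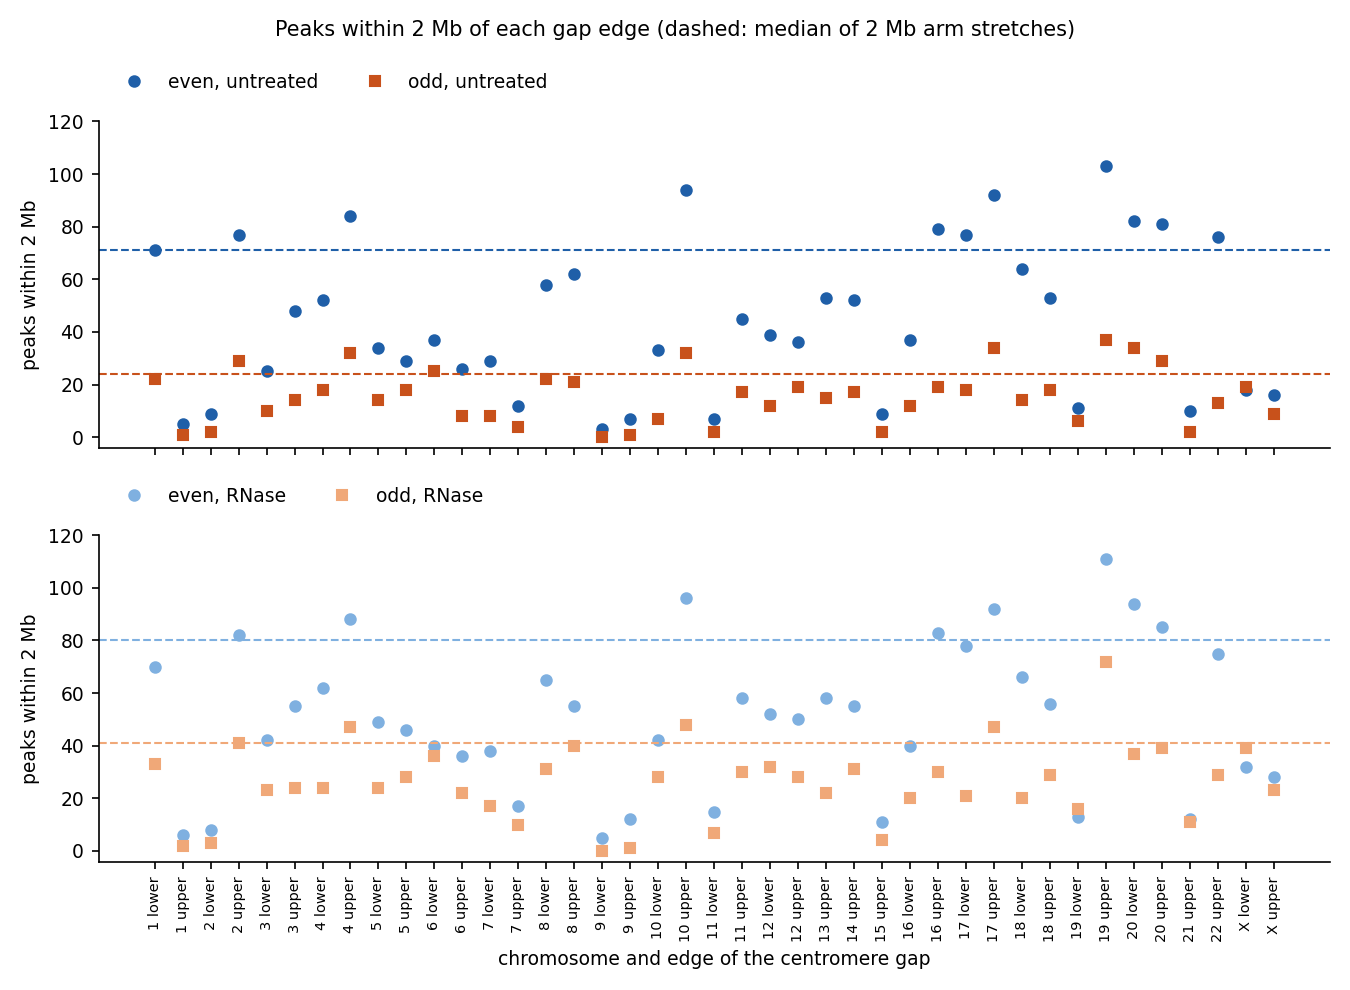
Number of peaks (vertical axis) within 2 Mb of each of the 41 gap edges (horizontal axis, chromosome and lower or upper edge), without RNase in the upper panel and with RNase in the lower panel; circles are the even and squares the odd probe set, and dashed lines are the medians of 1361 arm stretches of 2 Mb (71 and 24 without RNase, 80 and 41 with RNase). The upper edge of chromosome 19 is the richest and both edges of chromosome 9 are among the poorest in each panel.

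The richest edge was the upper edge of chromosome 19 (27732069 to 29732068), with 103 even and 37 odd peaks without RNase, and 111 even and 72 odd peaks after it. The upper edge of chromosome 10 (42379803 to 44379802) followed with 94, 32, 96 and 48 peaks in the same order. The upper edge of chromosome 17 (25263676 to 27263675) had 92, 34, 92 and 47 peaks, and no peak-free stretch of 100 kb. These 3 edges were above the arm median in every list. At the poor end, the lower edge of chromosome 9 (45212393 to 47212392) had 3, 0, 5 and 0 peaks. The upper edge of chromosome 1 (142536927 to 144536926) had 5, 1, 6 and 2 peaks, and the upper edge of chromosome 9 (66455996 to 68455995) had 7, 1, 12 and 1. Peak-free stretches took up 98.7%, 99.3% and 83.3% of these 2 Mb. The same chromosome could have a rich and a poor side: the lower edge of chromosome 19 had 11, 6, 13 and 16 peaks, and the lower edge of chromosome 2 had 9, 2, 8 and 3 where its upper edge had 77, 29, 82 and 41.

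Edges rich in one list tended to be rich in the lists it was compared with, over 4 pairs of lists. Across the 41 edges, the numbers of untreated and RNase-treated peaks correlated with a Pearson r of 0.98 (Spearman rho 0.98) in the even set and 0.92 (0.91) in the odd set. Between the probe sets r was 0.89 (0.87) without RNase and 0.85 (0.79) with RNase. Across the 1361 arm stretches r was 0.97, 0.90, 0.72 and 0.70 in the same order. These are descriptions: many edges lie on the same chromosome, all lists came from the same cell line, and the pairs within a probe set share its probes. Assembly gaps and copy number, which the lists may also share, were not analysed here.

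From 0.1 Mb outwards, density was lowest between 0.1 and 0.25 Mb and then higher with distance, though not at every step. Relative to the arms, density in the bin nearest to the edge differed between lists. In the untreated even list it was 6.34 peaks per Mb within 100 kb of the edge, 0.169 of its arm density. It reached 0.465 of the arm density between 0.25 and 0.5 Mb, 0.573 between 0.5 and 1 Mb and 0.749 between 1.5 and 2 Mb. It was still 0.857 between 2 and 3 Mb and 0.895 between 4 and 6 Mb, and between 6 and 8 Mb the interval of the ratio, 0.966 to 1.04, included the arm density. The RNase-treated even list had 0.325 within 100 kb and 0.288 between 0.1 and 0.25 Mb, and then came to 0.746 between 1.5 and 2 Mb and 0.994 between 6 and 8 Mb. The odd lists were higher within 100 kb (0.693 without and 0.862 with RNase) than between 0.1 and 0.25 Mb (0.396 and 0.319). All values within 100 kb include the peaks that set an edge, which lie there by the rule. Without RNase these were 1 of 26 even and 4 of 35 odd peaks. With RNase they were 17 of 55 even and 21 of 72 odd peaks, which raises the nearest bin most in the RNase-treated lists. Between 0.25 and 0.5 Mb the odd lists had 0.555 without and 0.617 with RNase, the latter above its value between 0.5 and 1 Mb. From 0.5 Mb outwards the odd lists had values like those of the even lists. The odd values were 0.567 and 0.570 between 0.5 and 1 Mb and 0.753 and 0.756 between 1.5 and 2 Mb without and with RNase. The limit of 2 Mb thus cut through a gradual but uneven rise. Within 0.1 Mb inside the limit lay 102 even and 42 odd peaks without RNase, and 123 and 62 after it, and within 0.1 Mb outside it lay 153, 38, 170 and 67 in the same order. Median widths were 177.5, 161, 172 and 164 bp inside and 189, 218, 192 and 188 bp outside.

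**Figure D2:**
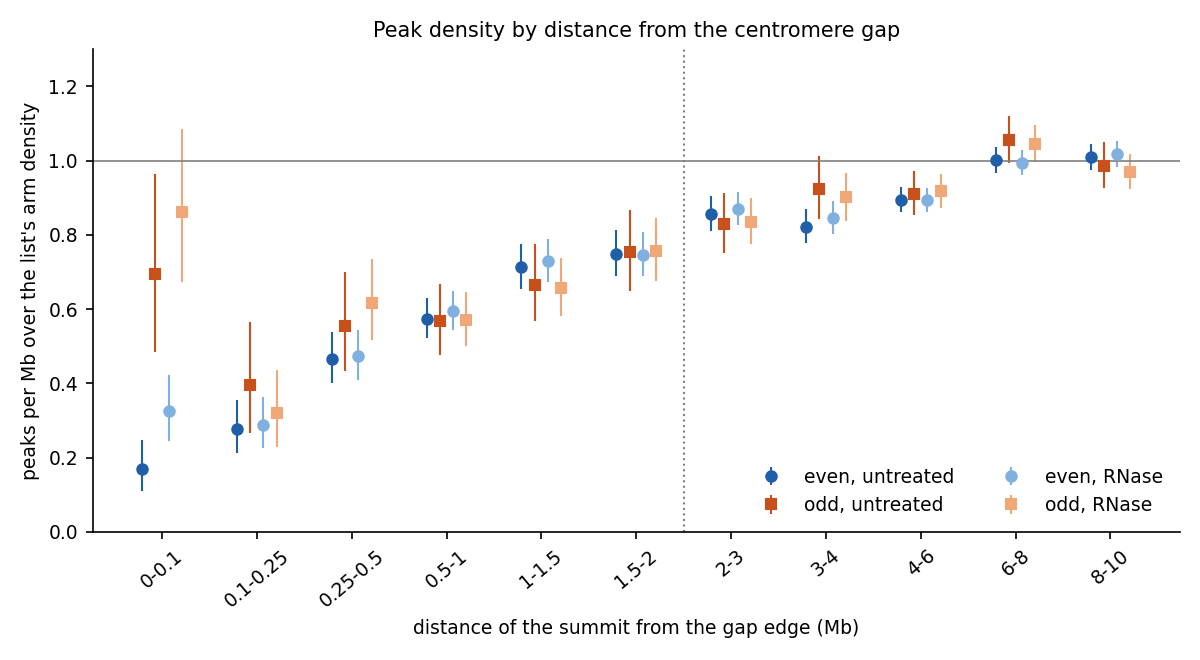
Peaks per Mb divided by the arm density of the same list (vertical axis) against distance of the summit from the gap edge in Mb (horizontal axis, bins of unequal width), for the 4 lists; bars are exact Poisson 95% intervals and the dotted line is the limit of 2 Mb. All lists climb from below 0.5 at 0.1 to 0.25 Mb to about 1 at 6 to 8 Mb, and the odd lists stand furthest above the even lists in the bin nearest to the edge (0.693 and 0.862 against 0.169 and 0.325). That bin includes the peaks that set an edge, mostly RNase-treated, which lie there by the rule.

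Next to the edge the even to odd ratio was lower than on the arms, but the rule itself placed the edges at peaks. Within 100 kb, a distance chosen after the values were seen, there were 26 untreated even and 35 untreated odd peaks, 0.743 even peaks per odd peak (Wilson 95% interval 0.450 to 1.23). On the arms the ratio was 3.05. After RNase there were 55 even and 72 odd peaks, a ratio of 0.764 (0.539 to 1.08) against 2.02 on the arms. Peaks that set an edge lie there by the rule. Without them the counts were 25 and 31, and 38 and 51, with ratios of 0.806 and 0.745. Leaving them out does not undo the rule. Untreated odd peaks that overlap an RNase-treated edge-setting peak stay in the count, as on chromosome 4 at 52697900 to 52698254. The low ratio next to the edge is thus a description of what was chosen. Over all 2 Mb the ratios were 2.89 and 1.94, near those of the arms, and of the distances in the plot of even peaks per odd peak, the ratio was below 1 in the nearest bin alone. Between 0.1 and 0.25 Mb it was 2.13 (1.39 to 3.28) without RNase and 1.83 (1.24 to 2.68) with RNase, and between 0.25 and 0.5 Mb it was 2.56 (1.94 to 3.37) and 1.55 (1.24 to 1.93), the last still below its arm value. Without RNase, 12 of the 41 edges had more odd than even peaks within 100 kb, 12 had more even peaks and 17 had equal numbers. With RNase these numbers were 21, 17 and 3. Repeats at these peaks were not analysed here.

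**Figure D3:**
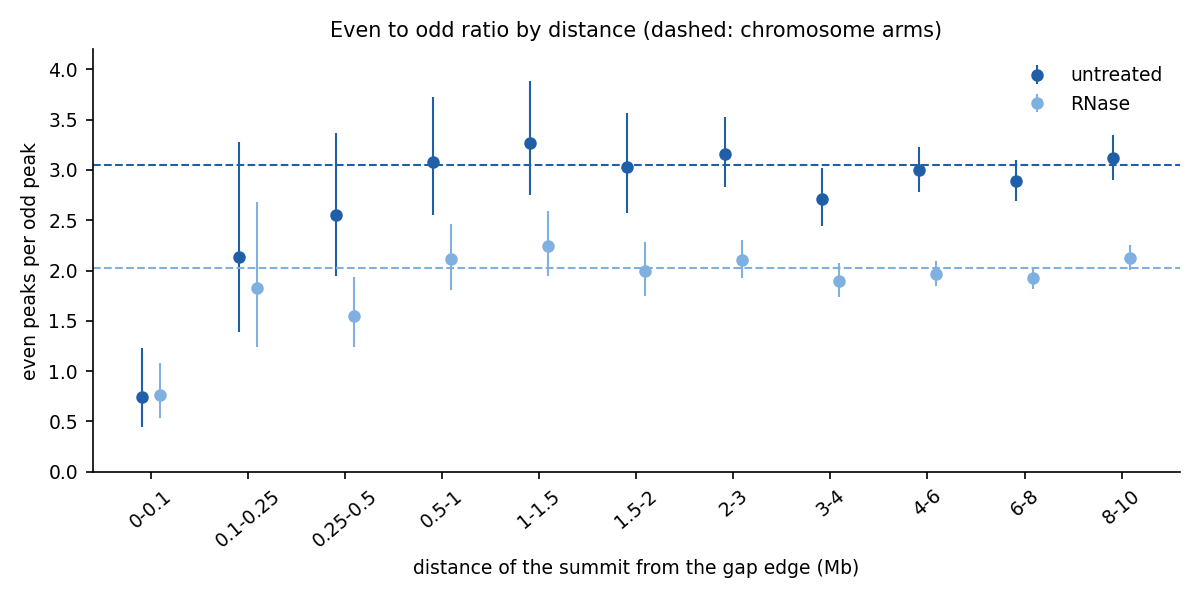
Even peaks per odd peak (vertical axis) against distance of the summit from the gap edge in Mb (horizontal axis, bins of unequal width), without and with RNase; bars are 95% intervals from the Wilson interval of the even share, and dashed lines are the arm values of 3.05 and 2.02. The bin nearest to the edge lies at 0.743 and 0.764, below all other bins. It includes the peaks that set an edge, which lie there by the rule.

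At some edges the odd peaks came in small groups, and at others a single odd peak lay within 100 kb. Of the 41 edges, 16 had an odd peak there without RNase and 30 with RNase. The 3 edges with the most odd peaks held 14 of 35 untreated peaks and 23 of 72 RNase-treated peaks. At the lower edge of chromosome 6, 5 odd peaks without RNase lay within 3013 bp (58776242 to 58779254, folds 7.41 to 11.1). The same 5 places had peaks with RNase (58776241 to 58779270, folds 4.15 to 10.3), and neither even list had a peak within 100 kb of that edge. Fold here is the authors' enrichment over what the peak caller took as background, and it only describes and ranks peaks within a list. At the upper edge of chromosome 10 there were 5 odd peaks without RNase and 9 with RNase, between 42398524 and 42409736 for the latter, against 0 and 1 even peaks. The upper edge of chromosome 19 had 3 odd peaks without RNase between 27732613 and 27734452 and 7 with RNase between 27732069 and 27739462, and no even peak. At the lower edge of chromosome 12 there were 7 odd peaks with RNase (34833459 to 34852165, folds 4.43 to 11.6) and 0 without, against 2 even peaks in each state. Other edges had both sets within 100 kb. The lower edge of chromosome 17 had 3 odd and 3 even peaks without RNase, and 3 and 5 with RNase. The upper edge of chromosome 4 had 3 odd and 2 even peaks without RNase, and 5 and 4 with RNase.

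Median folds of these peaks were lower than on the arms, with a few strong exceptions. Within 100 kb, median folds without RNase were 8.29 (even) and 8.32 (odd), against 10.95 and 10.2 on the arms. After RNase they were 6.96 and 7.56, against 11.8 and 10.96. A −log10 q-value of at least 10 was reached by 16 of 26 even and 25 of 35 odd peaks without RNase. With RNase it was reached by 19 of 55 even and 37 of 72 odd peaks. The strongest was an odd peak at the upper edge of chromosome 18, at 18654819 to 18655250 without RNase (fold 61.9) and 18654774 to 18655295 with RNase (fold 159). An odd peak at the upper edge of chromosome 14 was at 19461196 to 19461558 (fold 53.6) and 19461187 to 19461611 with RNase (fold 83.5). At the upper edge of chromosome 4 an untreated odd peak had its summit 211 bp from the edge (52697900 to 52698254, fold 35.5), and its RNase-treated counterpart set the edge (52697879 to 52698290, fold 53.1). The strongest even peak there was at the lower edge of chromosome 17, at 22191499 to 22191899 with RNase (fold 38.4) and 22191655 to 22191848 without (fold 19.8). Of the untreated peaks within 100 kb, 23 of 26 even and 33 of 35 odd peaks overlapped a peak of the same set after RNase (88.5% and 94.3%, against 80.9% and 91.6% of the whole lists). In reverse it was 23 of 55 even peaks (41.8%, Wilson 95% interval 29.7 to 55.0), against 73.5% of the whole list, and 33 of 72 odd peaks (45.8%, 34.8 to 57.3), against 55.2%. Of these RNase-treated peaks, 17 even and 21 odd ones lay there by the rule, since they set an edge.

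The second comparison was of peak width. Peaks beside the gaps had slightly lower median widths in each list, but in the odd lists the sign turned under 2 alternatives: to 1.93 bp wider without and 5.76 bp wider with RNase when chromosomes were weighted equally, and to 1.0 and 0.5 bp wider among peaks whose −log10 q-value was 10 or more. The untreated even median was 179 bp beside the gaps (95% interval of the median 173 to 186) and 186 bp on the arms. The untreated odd median was 166 bp (161 to 177) and 172 bp. With RNase it was 179 bp (175 to 185) and 192 bp in the even list, and 166 bp (161 to 174) and 173 bp in the odd list. Only in the RNase-treated even list was the arm median outside the interval. The middle 50% of widths beside the gaps ran from 136 to 283 bp in the untreated even list, so the shifts of 6 to 13 bp were small against the spread of widths. By chromosome, the median was narrower beside the gap on 16 of 23 chromosomes for the even set without RNase and 18 after it, and on 13 for the odd set in either state.

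Wide peaks of 800 bp or more were rare beside the gaps. They numbered 8 of 1835 in the untreated even list (0.436%, against 0.416% on the arms) and 7 of 2078 in the RNase-treated even list (0.337% against 0.417%). The odd lists had 2 of 636 (0.314%, Wilson 95% interval 0.0863 to 1.14, against 0.0411%) and 1 of 1069 (0.0935% against 0.0408%). The widest even peak lay at the upper edge of chromosome 13, at 20966512 to 20968641 without RNase (2130 bp, fold 34.7) and at 20966530 to 20968667 with RNase (2138 bp, fold 53.8), and had no odd counterpart. The widest odd peak lay at the upper edge of chromosome 2, at 95702182 to 95703424 without RNase (1243 bp, fold 81.9) and at 95702164 to 95703162 with RNase (999 bp, fold 158). The second wide odd peak ended at the lower edge of chromosome 1 (121484591 to 121485428, 838 bp, fold 7.77). This chromosome 1 peak set that edge, so it lies against the gap by the rule. The other wide peaks had their summits at least 311 kb from the gap.

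Folds beside the gaps were a little lower by their medians. They were 10.3 beside the gaps and 10.95 on the arms in the untreated even list, and 10.06 and 10.2 in the untreated odd list. With RNase they were 11.1 and 11.8 in the even list and 10.1 and 10.96 in the odd list. Of the strongest 10% of each list by p-value, the even lists had fewer beside the gaps, 7.19% of the untreated peaks there (6.10 to 8.47) and 7.94% of the RNase-treated peaks (6.85 to 9.18), where an even spread gives 10%. The odd lists had 10.1% (7.96 to 12.6) and 9.07% (7.50 to 10.9). The highest untreated even fold beside a gap was 105, at the upper edge of chromosome 13 (21071263 to 21072746), and this peak was also in the RNase-treated even list (fold 134). The highest RNase-treated even fold was 179.6, at the upper edge of chromosome 20 (30903826 to 30904420), where the untreated even fold was 102. The highest odd fold was at the lower edge of chromosome 4, 129 without RNase (47913566 to 47914102) and 265 with RNase (47913518 to 47914146), where it ranked 71 and 23 by fold in the whole lists. None of these 3 places had a peak of the other probe set.

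The third comparison was of RNase sharing, the share of peaks that overlapped by at least 1 bp a peak of the same probe set in the other RNase state. It asks whether recovery beside the gaps depended on RNA. Of the untreated even peaks beside the gaps, 1490 of 1835 (81.2%, Wilson 95% interval 79.3 to 82.9) had an RNase-treated counterpart, against 80.9% of the whole list. Of the untreated odd peaks it was 575 of 636 (90.4%, 87.9 to 92.5), against 91.6% of the whole list. Set against the arms, the differences were 0.328 percentage points (-1.54 to 2.07) in the even set and -1.20 points (-3.76 to 0.871) in the odd set, so neither was distinguishable from 0 at this number of peaks. Most untreated peaks beside the gaps were thus also found after RNase, as on the arms.

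In reverse, 1484 of 2078 RNase-treated even peaks (71.4%, 69.4 to 73.3) overlapped an untreated even peak, against 73.5% of the whole list, and 573 of 1069 RNase-treated odd peaks (53.6%, 50.6 to 56.6) an untreated odd peak, against 55.2%. The differences from the arms were -2.10 points (-4.09 to -0.177) and -1.66 points (-4.68 to 1.34). This left 594 even and 496 odd peaks beside the gaps that were found only after RNase in their set. The RNase-treated peaks beside the gaps include 17 even and 21 odd ones that set an edge and are members by the rule. The differences from the arms without them were not computed. The even difference changed sign when each list was cut to its 34695 strongest peaks, to 1.44 points. By distance, the share of the RNase-treated even list went from 73.3% between 1 and 2 Mb (70.8 to 75.7, 1247 peaks) to 70.2% between 0.5 and 1 Mb (66.0 to 74.0, 503 peaks) and 66.2% within 0.5 Mb (60.9 to 71.1, 328 peaks). In the RNase-treated odd list the values were 55.9% (51.9 to 59.9), 51.7% (45.4 to 58.0) and 49.8% (43.5 to 56.1). The untreated lists showed no such order, with 81.6%, 80.5% and 80.7% in the even set and 92.5%, 86.0% and 89.6% in the odd set at the same distances. Neighbouring distances overlap in their intervals, and the lower shares next to the gap include the RNase-treated peaks that set edges by the rule.

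Sharing went with peak strength beside the gaps as on the arms. In the stronger 50% of each list by p-value, 94.6% of the untreated even and 99.7% of the untreated odd peaks beside the gaps had an RNase-treated counterpart, against 94.4% and 99.5% on the arms. In the weaker 50% the shares were 69.6% and 81.8%, against 67.3% and 83.7%. For the RNase-treated peaks the stronger 50% gave 97.3% (even) and 88.3% (odd), and the weaker 50% gave 48.8% and 21.3%. Beside the gaps, untreated even peaks without a counterpart had a median fold of 7.14 and those with one 11.8. In the untreated odd list the values were 6.20 and 10.9. Where peaks of both RNase states overlapped, the median distance between their summits was 20 bp for the even set (1490 pairs) and 16 bp for the odd set (575 pairs).

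The last comparison was of probe-set sharing, the share of peaks that overlapped a peak of the other probe set in the same RNase state. A contact of the RNA itself should be seen by both sets. Beside the gaps, 23 of 1835 untreated even peaks (1.25%, 0.837 to 1.87) overlapped an untreated odd peak, against 1.23% of the whole list. In reverse, 23 of 636 untreated odd peaks did so (3.62%, 2.42 to 5.37), against 3.78%. With RNase the counts were 31 of 2078 even peaks (1.49%, 1.05 to 2.11), against 1.61%, and 31 of 1069 odd peaks (2.90%, 2.05 to 4.09), against 3.28%. These shares are near those of the whole lists, and the intervals of all 4 differences from the arms include 0, the widest running from -1.38 to 1.60 points. The peaks of the other set covered less of the length beside the gaps than of the arms, 0.168% against 0.265% for the untreated odd list and 0.497% against 0.854% for the untreated even list.

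**Figure D4:**
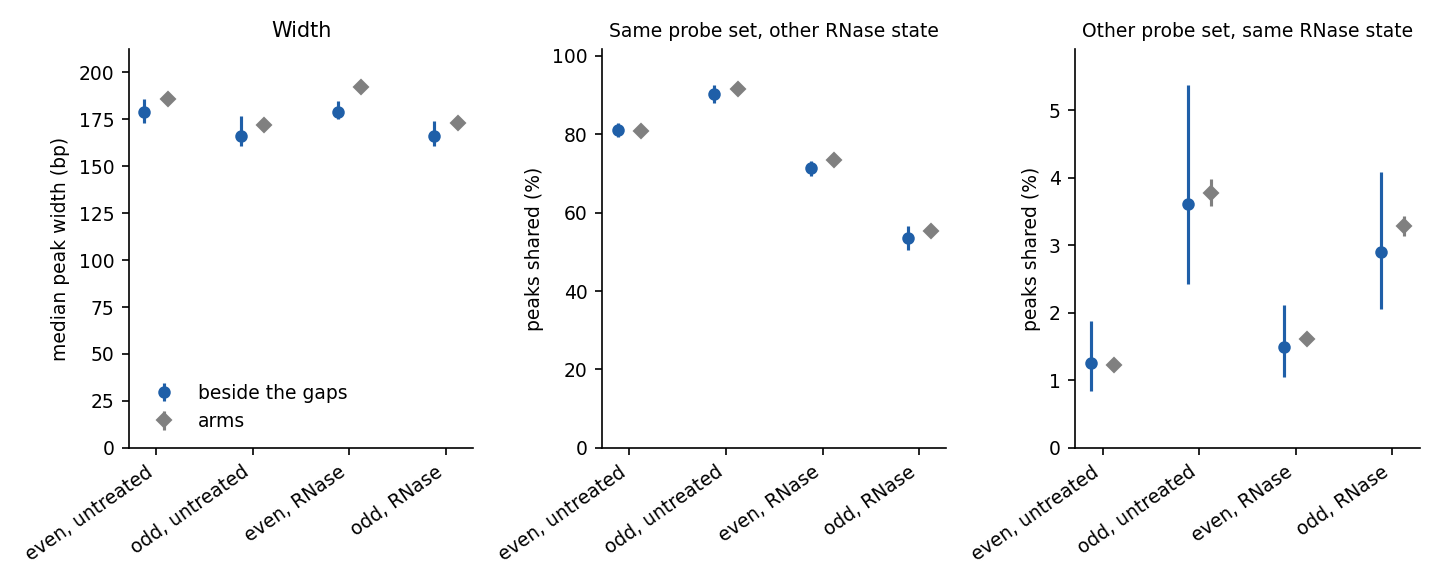
Median peak width in bp (left), percent of peaks that overlap a peak of the same probe set in the other RNase state (middle) and percent that overlap a peak of the other probe set in the same RNase state (right), for each of the 4 lists (horizontal axis); circles are peaks beside the gaps, diamonds those on the arms, and bars are 95% intervals that cover counting error only. In the middle and right panels the values beside the gaps lie close to those of the arms, for example 81.2% and 80.9% in the untreated even list.

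Taken as merged regions, in which overlapping peaks of any list are joined, there were 3508 places beside the gaps. Of these 1475 (42.0%) were in 1 list, 1997 (56.9%) in 2 lists, 15 (0.428%) in 3 and 21 (0.599%, Wilson 95% interval 0.392 to 0.913) in all 4. On the arms the shares were 40.1%, 58.7%, 0.657% and 0.511%. The common kinds were the even set in both states (1452 places, 41.4% against 43.0% on the arms), RNase-treated even alone (590, 16.8% against 15.7%), the odd set in both states (543, 15.5% against 15.6%) and RNase-treated odd alone (486, 13.9% against 12.8%). Untreated even alone had 340 places (9.69% against 10.3%) and untreated odd alone 59 (1.68% against 1.35%).

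Regions found by both probe sets numbered 23 without RNase and 31 with RNase beside the gaps, 0.280 (exact Poisson 95% interval 0.178 to 0.421) and 0.378 (0.257 to 0.537) per Mb. The arms had 0.459 and 0.663 per Mb, which gives ratios of 0.612 and 0.570. These are near the ratios of all peaks in the 4 lists, 0.596 to 0.640. Of the 23 untreated regions, 0 lacked an RNase-treated peak of either set, which allows a share of up to 13.04% with a limit of 3 counts, and on the arms it was 15 of 1269 (1.18%). Of the 31 RNase-treated regions, 1 lacked an untreated peak (3.23%, 0.572 to 16.2), against 5.99% on the arms. That region, named after its values were seen, was on chromosome 8 at 48617289 to 48617515 (even fold 6.18, odd fold 18.3). Every untreated region of both sets beside the gaps thus overlapped a peak of at least 1 set after RNase, and with 23 regions a share like that of the arms was within the interval.

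A single stretch of chromosome 2 held several regions of both sets. A run of 4 untreated regions lay within 3467 bp at its upper edge (95702182 to 95705648), 311 kb from the gap, and 5 RNase-treated regions lay at the same place (95702164 to 95705683). The run held 5 untreated even peaks (folds 7.27 to 29.7), 4 untreated odd peaks (6.19 to 81.9), 5 RNase-treated even peaks (17.0 to 31.5) and 5 RNase-treated odd peaks (5.56 to 158). Its widest peaks were 1254 bp (untreated even) and 1243 bp (untreated odd), and they covered nearly the same bases. The run made up 4 of the 9 untreated regions within 500 kb of a gap and 5 of the 11 RNase-treated ones. In the 0.5 Mb next to the gaps, 3.35% of untreated even peaks overlapped an odd peak (1.77 to 6.24), against 0.454% between 0.5 and 1 Mb and 1.07% between 1 and 2 Mb, and the regions behind the first value were 5 without the run.

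The other strong regions of both sets were single places. By the smaller fold of both sets, the first without RNase was on chromosome 14 at 21422197 to 21422648, with an even fold of 34.1 and an odd fold of 47.4. A neighbour on chromosome 14 at 21358131 to 21358521 had folds of 19.995 and 18.2. With RNase this neighbour (21358129 to 21358544) was first, with 30.3 and 34.5, and the other had 25.8 and 97.5. The chromosome 10 region at 43524984 to 43525550 had untreated folds of 94.9 (even) and 19.3 (odd), and RNase-treated folds of 115 and 17.7. On chromosome 4, the region at 52807332 to 52807814 had untreated folds of 18.6 and 61.2, and the one at 53250724 to 53251017 had 15.3 and 24.0. With RNase these had folds of 13.3 and 103, and of 18.3 and 36.8. All of these places were in all 4 lists.

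On chromosome 19 the region at 29341477 to 29341857 had untreated folds of 34.2 (even) and 17.7 (odd), and RNase-treated folds of 34.02 and 20.2. On chromosome 20 the region at 25291150 to 25291636 had 17.5 and 31.5 without RNase, and 18.03 and 44.95 with RNase. On chromosome 18 the region at 18851642 to 18852210 had 12.01 and 34.8 without RNase, and 25.7 and 73.7 with RNase. The chromosome 16 region at 48188896 to 48189243 had untreated folds of 12.1 and 28.4, and it was not found by both sets after RNase. On chromosome 19 at 24213192 to 24213876 the RNase-treated folds were 23.7 and 36.3, and untreated peaks of both sets lay in the merged place (13.5 and 15.7) without overlapping each other. On chromosome 17 at 22168247 to 22168643, 49.3 kb from the gap, the RNase-treated folds were 18.4 and 26.5, against untreated folds of 7.14 and 12.01.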

How the data were processed

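Peak lists of 4 ChIRP-seq libraries were used, 1 per probe set and RNase state. Bowtie, MACS2 and the build hg19 come from the submitters' processing notes. Tool versions, the threshold and the control library: not given in the sources used here. Each list was deposited as narrowPeak for 1 library. Fold enrichment is a linear ratio deposited by the authors. The authors also deposited −log10 p-values, used to rank peaks, and −log10 q-values, of which the lowest was 2.01. The deposited score was not used. Depth is unknown.

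Gaps, densities, widths and overlaps (at least 1 bp) were computed with Python 3.11.15 (pandas 2.3.3, numpy 2.4.6, scipy 1.17.1) and drawn with matplotlib 3.10.9. Lengths ran from base 1 to the last peak end, without the gap. Intervals are 95% Wilson (shares), exact Poisson (densities), order-statistic (medians) and Newcombe (differences of shares). The counting was tested on simulated lists.

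The regions and comparisons were chosen with earlier results of these data known. Named are the 3 richest and 3 poorest edges, the widest and strongest peak per list, and the 10 places with the highest smallest fold among those of both probe sets (per RNase state) and of all 4 lists. Others were picked after their values were seen: the odd groups and strongest peaks within 100 kb, the second sides of chromosomes 2 and 19, and the run on chromosome 2. Alternatives were 1 and 5 Mb, stricter q-values (−log10 of at least 10), equal weight per chromosome, length without peak-free stretches of 100 kb, gaps of each list alone, reciprocal 50% overlap and the 34695 strongest peaks per list. Chosen after seeing the data were another gap on chromosome 21, edge-setting peaks left out, and, for the ratio near the edge, 50 kb, 250 kb and the stricter q-values.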

Additional observations from a re-analysis of the deposited data

How the results depend on the processing

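No paired analysis was possible because each condition had 1 library and the labels give no replicate numbers; the probe sets were not treated as replicates. The lower density beside the gaps held in each setting run, between 0.463 and 0.907 of the arms. For the even then the odd set without RNase, and the even then the odd set after it, the ratio was 0.463, 0.553, 0.493 and 0.576 within 1 Mb, 0.732, 0.766, 0.752 and 0.771 within 5 Mb, and 0.845, 0.893, 0.871 and 0.907 without peak-free stretches of 100 kb. With gaps from each list alone it was 0.663 (untreated even), 0.750 (untreated odd) and 0.665 (RNase-treated even), and with chromosomes weighted equally 0.560 (untreated even) and 0.581 (RNase-treated even). The difference of median widths within 1 Mb was -15.5 bp (untreated odd), -20.0 bp (RNase-treated even) and -13.0 bp (RNase-treated odd), and with chromosomes weighted equally -17.2 bp (RNase-treated even) and, turned in direction, 5.76 bp (RNase-treated odd). RNase sharing differed from the arms by -3.85 points (untreated odd) and -4.92 points (RNase-treated even) within 1 Mb, by -1.97 points (untreated even) under the stricter q-value limit, and by -4.87 points (RNase-treated even) with equal weights. With equal numbers of peaks it was 2.13 points (untreated even) and, turned in direction, 1.44 points (RNase-treated even), where fewer peaks were used by construction. Probe-set sharing moved in 1 of 24 values, to 1.09 points (RNase-treated even, equal numbers). The even to odd ratio near the edge was 1.38 without and 1.14 with RNase within 250 kb, and 0.514 with RNase under the stricter q-value limit. Of 104 recomputed values, 72 stayed within the 95% interval of the reported one, and the cause of the moves was not tested. Those that stayed were 15 of 32 for density, 11 of 16 for width and 18 of 24 for RNase sharing. For probe-set sharing they were 23 of 24, and for the even to odd ratio near the edge 5 of 8.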
